A study of Bos taurus with 18 samples.

Results

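The hypothalamus of Angus cows was compared between 6 months, when the calves had just been weaned, and 18 months, when they were sexually mature. The comparison used 6 of the 18 libraries of the series, 3 cows at each age. Its members were the gene models whose normalised counts did not overlap between the ages, so that all 3 libraries of one age lay above all 3 of the other. There were 1609 such gene models higher and 1444 lower at 18 months, among 18763 that passed a filter on low counts and 27376 in the table.

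The whole study held poly(A) RNA libraries of the hypothalamus and the pituitary from 9 cows, 3 each at 6, 18 and 30 months, the oldest after a first calving. Per the labels, no cow was in heat at slaughter, and the piece taken was the upper hypothalamus. Each age was represented by different cows, so age cannot be told apart from anything else that differed between the 2 sets of animals, and each value per library comes from 1 cow. No treatment, transgene or pooling of animals is described.

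The hypothalamus links the brain to the pituitary: its neurons release gonadotropin-releasing hormone and other factors into the portal vessels that feed the anterior pituitary. Puberty is known as the time when pulses of gonadotropin-releasing hormone become frequent enough to drive the ovarian cycle. The tissue also holds feeding, stress and growth hormone neurons together with astrocytes, oligodendrocytes, microglia and vessels, so a bulk library averages over many cell types. Fewer cells of a type and less RNA per cell cannot be told apart in such samples.

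The table names its gene models by number, and 21377 of them are annotated gene models while 5999 are new ones that the authors added. None of the 27376 identifiers (0) matched a gene in the RefSeq table of 37063 cattle genes used here. Gonadotropin-releasing hormone, kisspeptin, the myelin genes and the other genes of interest at this age therefore could not be looked up, and the labelled tissue was not checked against its marker genes. On log2 values across gene models, the 36 pairs of a hypothalamus and a pituitary library of these ages correlated at 0.797 to 0.961 (median 0.91), a range whose top equals that of the 15 pairs within the hypothalamus (0.886 to 0.961, median 0.921). The 6 pairs of both tissues from the same cow ran from 0.853 to 0.961 (median 0.907). The log2 values of the next paragraph put the 15 hypothalamus pairs at 0.877 to 0.956, so the 2 scales are not interchangeable. Gene models are described by length, by chromosome and by the span of the single-nucleotide polymorphism (SNP) sites that lie in them. Positions are those of the deposited SNP table, whose chromosome names match NCBI's for the cattle assembly UMD; the table names no build.

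Library totals ran from 29773484 to 36865318 counts, and between 19946 and 21087 gene models had at least 1 count in a library. Genotypes at SNP sites tied each hypothalamus library to the pituitary library of the same age and number, with 99.293% to 99.676% of genotypes identical. The next most similar pituitary library reached 54.742% to 66.709%. Replicates of an age were not closest to each other in every case. On log2 CPM (counts scaled to a library size of 1000000), 18-month replicates 1 and 3 correlated at 0.956, and 6-month replicate 2 correlated with them at 0.947 and 0.938, against 0.922 and 0.900 with the other libraries of its own age. In turn, 18-month replicate 2 correlated at 0.916, 0.9135 and 0.915 with 6-month replicates 1 to 3. With 18-month replicates 1 and 3 it correlated at 0.912 and 0.904. At either age, 1 library was thus closer to libraries of the other age than to those of its own. These correlations run across gene models, which are not independent replicates.

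A pair of libraries stood apart from the rest. In 18-month replicate 2, 30.4% of reads at SNP sites lay in 3′ untranslated regions (UTRs), against 23.8% and 22.9% in the other 18-month libraries and 23.2%, 22.6% and 26.6% at 6 months. In 6-month replicate 1, 0.833% of the informative reads (1052 of 126313, at 2044 sites) carried the allele of another cow, the one that gave 18-month replicate 3. The highest such share in any of the other 5 libraries was 0.0912%. Results are therefore given with all 6 libraries and without each of this pair. A further split crossed the ages: intron sites took 13.7% of site reads in 18-month replicate 2 and 13.7% in 6-month replicate 3, against 19.8% to 20.7% in the other 4.

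Within single gene models, reads at 3′ UTR sites relative to coding sites were higher in all 18-month libraries. Over 3342 gene models with at least 20 reads in both classes in each library, the median log2 ratio, centred on the mean of the 9 hypothalamus libraries, was 0.09, 0.44 and -0.08 in 18-month replicates 1 to 3. It was -0.21, -0.18 and -0.15 at 6 months. The ages did not overlap, with or without 18-month replicate 2, and the difference of 0.33 gave a two-sided exact permutation p of 0.1, the smallest that 3 against 3 libraries can give, and 0.4 after adjustment over 4 measures. The shares of site reads overlapped between the ages for 3′ UTR sites (exact permutation p = 0.6), coding sites (exact permutation p = 0.2) and intron sites (exact permutation p = 1.0). Over the sites read in all 6 libraries, the coding shares no longer overlapped, at 29.2%, 29.4% and 30.7% at 18 months against 32.1%, 31.1% and 32.3% at 6 months (exact permutation p = 0.1). Of the 4 measures, only the within-gene ratio thus separated the ages over all sites. The coding share did so only over the sites read in all 6 libraries (exact permutation p = 0.2 after adjustment). The part of read position in the results that follow was not tested.

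No gene model passed the test across the table. The quasi-likelihood test of edgeR called 0.0% of 18763 gene models at an adjusted p under 0.05, the smallest adjusted p being 0.558. At an unadjusted p under 0.05, 735 were higher (3.92%) and 917 lower (4.89%) at 18 months. The coefficient of variation between cows of an age, as edgeR estimated it, was 51.6%. DESeq2 called 96 gene models on the same counts. The values that follow therefore describe these 6 cows, and each gene model named has an edgeR adjusted p of at least 0.558.

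Gene models with non-overlapping CPM made up 8.58% of those tested in the higher and 7.7% in the lower direction. These shares are the count of members itself, so nothing is read from them beyond the number. Most differences were small. The median log2 ratio of the age means was 0.57 in the higher and -0.86 in the lower group, and the 2 means differed at least 2-fold in 392 (24.4%) of the higher and 558 (38.6%) of the lower gene models. Over all gene models tested, the median was -0.01 and 13.6% reached 2-fold. The higher group was expressed at a median of 26.8 CPM and the lower group at 17.9 CPM, against 18.3 CPM over all tested.

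The edge of the rule was crowded. In 418 of the higher and 291 of the lower gene models the nearest libraries of the 2 ages differed by under 5%, and 917 further gene models missed the rule by an overlap of under 5%. A gap of at least 2-fold between the nearest libraries was left in 60 higher (0.32%) and 84 lower (0.448%) gene models. Of the non-overlapping gene models, 650 of 1609 higher and 707 of 1444 lower ones also had an unadjusted edgeR p under 0.05. New gene models formed 11.9% of the higher (192) and 16.4% of the lower group (237), against 14.8% of all tested (2775).

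Leaving out a library relaxes the rule, since fewer values have to be kept apart, so the counts grew each time and by unequal amounts. Without 18-month replicate 2, 3573 gene models were higher (19%) and 3530 lower (18.8%). Without 6-month replicate 1 the counts were 2083 (11.1%) and 1907 (10.2%), and without both they were 4205 (22.4%) and 4147 (22.1%). Leaving out 6-month replicate 2 gave 3300 (17.6%) and 2961 (15.8%), and 6-month replicate 3 gave 2646 (14.1%) and 2549 (13.6%). Leaving out 18-month replicate 1 gave 2048 and 1909, and 18-month replicate 3 gave 2221 and 2164. The smallest gains came from 18-month replicate 1 and 6-month replicate 1. The libraries that kept most gene models out of the list were thus 18-month replicate 2 and 6-month replicate 2, 1 at each age.

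**Figure D1:**
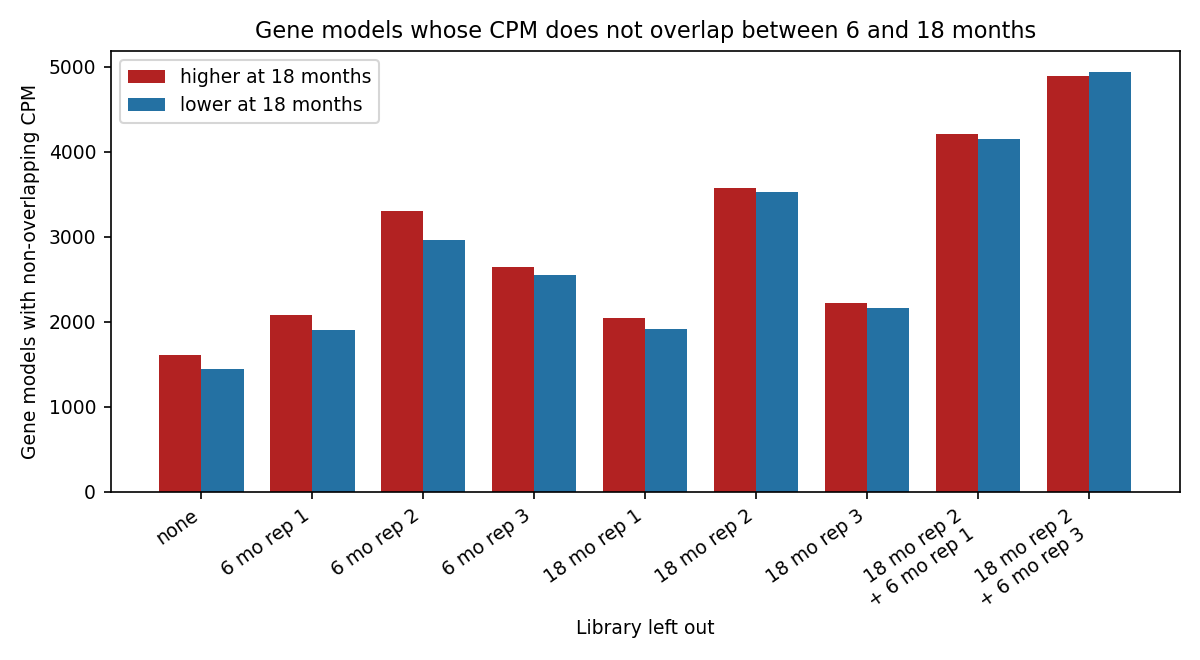
Gene models with non-overlapping CPM (y axis) among the 18763 tested, higher and lower at 18 months drawn separately, for all 6 hypothalamus libraries and with libraries left out (x axis). With all 6 libraries there are 1609 higher (8.58%) and 1444 lower (7.7%). Without 18-month replicate 2 there are 3573 (19%) and 3530 (18.8%).

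Gene models were ranked by the gap between the nearest libraries of the 2 ages, among those with at least 1 CPM in every library of the higher age (1484 higher and 1252 lower). The first of the higher ones, the new gene model Bos_taurus_newGene_33049 of 55153 bases, had no SNP site. It had 0 counts in all 3 libraries at 6 months and 12.9, 15.7 and 54 CPM at 18 months. Against a floor of 3 counts over the 3 libraries, its mean was at least 857-fold higher at 18 months (edgeR adjusted p = 0.558). At 30 months it read 54.8, 40.9 and 0 CPM, and in the pituitary of the 6-month cows it read 51.6, 67.7 and 19.4 CPM. The gene model thus had no counts in the hypothalamus of the calves but had counts in their pituitary, and it had none in the hypothalamus of 1 of the oldest cows.

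The next was Bos_taurus_newGene_54320, a new gene model of 2138 bases on chromosome 12, with 9 SNP sites between 86291911 and 86296624. It had 0 counts at 6 months and 6.80, 1.82 and 6.07 CPM at 18 months, at least 152-fold higher. Reads at its SNP sites did not follow: they numbered 16, 14 and 12 at 6 months and 11, 7 and 15 at 18 months. Reads thus covered the locus in the 6-month libraries although the count table assigned none to this gene model.

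The first of the lower ones was Bos_taurus_newGene_18182, of 24545 bases and with no SNP site. It read 47.8, 47.7 and 69.1 CPM at 6 months and 1.33, 0.173 and 1.33 CPM at 18 months, a 58-fold lower mean with a 35.8-fold gap between the nearest libraries (edgeR log2 fold change -5.85, SE 1.51, adjusted p = 0.558). At 30 months it read 1.73, 61.5 and 2.26 CPM, so that 1 of the oldest cows sat with the calves. Bos_taurus_newGene_66975, of 2887 bases, read 2.14, 1.20 and 2.65 CPM at 6 months and had 0 counts in all 18-month and 30-month hypothalamus libraries, at least 68.5-fold lower at 18 months. These 4 were the extremes of the ranking, and new gene models held the first 5 places of the higher and 4 of the first 10 places of the lower ranking.

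Among the other gene models of large gap, SNP-site reads followed the counts in some and not in others. An annotated gene model of 5151 bases on chromosome 21 (sites from 70708217 to 70715521) read 0.237, 1.33 and 0.221 CPM at 6 months and 5.49, 17.2 and 4.74 CPM at 18 months. Its 31 sites held 4, 34 and 0 reads against 75, 53 and 35, so both readings separated the ages. An annotated gene model of 25793 bases on chromosome 4 (46436145 to 46473217) read 1.28, 1.45 and 0.589 CPM against 5.46, 4.94 and 72.8 CPM. The last value carried most of its 25.1-fold ratio, and its site reads overlapped between the ages, at 202, 208 and 94.7 RPM (reads per 1000000 reads at SNP sites of the library) at 6 months and 190, 103 and 171 RPM at 18 months.

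On the lower side, an annotated gene model of 13580 bases on chromosome 10 (21362356 to 21376377) read 3.35, 21.4 and 13.6 CPM at 6 months and 1.07, 0.462 and 0.747 CPM at 18 months. Its site reads, 22, 87 and 32 against 9, 0 and 4, did not overlap either. An annotated gene model of 2754 bases on chromosome 9 (11442046 to 11694202) read 10.3, 1.20 and 7.29 CPM at 6 months and had 0 counts at 18 months, at least 215-fold lower. Its 52 sites, 49 of them in introns, still held 11, 55 and 11 reads at 18 months, against 223, 50 and 212 at 6 months. The 55 reads of 18-month replicate 2 exceeded the 50 of 6-month replicate 2, so the site reads overlapped where the counts did not. A gene model of 2922 bases on chromosome 7 (54022417 to 54024261), with all 13 sites in coding sequence, read 4.42, 3.94 and 3.39 CPM against 0.640, 0.578 and 0.325 CPM, while its site reads were 59, 92 and 53 against 131, 53 and 62.

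The rest of the first 10 in each direction are given as ranges, whose upper ends at the higher age came from single gene models. That of 23338 bases read 20.6, 13.7 and 20 CPM at 18 months, and that of 9423 bases read 10.5, 16.5 and 19.8 CPM at 6 months. The 6 remaining higher ones, of 1356 to 23338 bases, read 0 to 1.01 CPM at 6 months and 1.30 to 20.6 CPM at 18 months. A pair of them could be placed, on chromosome 3 (19779586 to 19788087) and chromosome 7 (19744233 to 19746808), and both held under 10 site reads in every library. The 5 remaining lower ones, of 1310 to 9423 bases, read 1.26 to 19.8 CPM at 6 months and 0 to 3.44 CPM at 18 months. Those that could be placed lay on chromosomes 24 (24674263 to 24787872), 3 (121250604 to 121264966) and 8 (50875153 to 51078908).

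The abundant gene models of the 2-fold gap rest on many counts in every library of the higher age. They were chosen after their values had been seen, as the 5 of each direction with the highest mean CPM over the 6 libraries. An annotated gene model of 832 bases on chromosome 1 (141467608 to 141531478) read 108.9, 189.0 and 90.5 CPM at 6 months and 418.4, 427.0 and 383.8 CPM at 18 months. All older libraries thus lay above all younger ones, with a 3.16-fold ratio of means (edgeR log2 fold change 1.66, SE 0.50, adjusted p = 0.558). Its site reads, nearly all in introns, overlapped, at 109, 97.8 and 182 RPM against 15.2, 135 and 105. At 30 months it read 284.1, 91.6 and 419.6 CPM.

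An annotated gene model of 7927 bases on chromosome 10 (20904734 to 20921452) read 11.3, 17.5 and 40.6 CPM at 6 months and 436.9, 116.6 and 465.4 CPM at 18 months, a 14.7-fold ratio. At 30 months it read 20.8, 19.4 and 136.9 CPM. Reads at its coding sites were also higher without overlap, but by less, at 5.56, 9.16 and 9.06 RPM against 17.1, 14.7 and 18.4. A gene model of 7912 bases on the X chromosome (90232921 to 90360453) read 28.8, 21.6 and 41.2 CPM against 125.5, 117.8 and 164.9 CPM, and its 12 sites held few reads in any library. At 30 months it read 123.2, 20.6 and 115.7 CPM. A gene model of 4374 bases on chromosome 5 (113420097 to 113422497) read 0.623, 45.2 and 0.478 CPM at 6 months and 117.8, 109.9 and 118.1 CPM at 18 months. In it, 6-month replicate 2 stood between the other calves and the older cows, and at 30 months the values were 101.6, 0.843 and 118.0 CPM (edgeR adjusted p = 0.611).

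The 5 abundant gene models of the lower direction included long ones whose coding sites followed the counts. Over all lower gene models with a 2-fold gap, the median length was 2874.5 bases. The shortest of the 5, of 1437 bases on chromosome 26 (21133569), held 1 site, in an intron. It read 111.9, 69.0 and 65.05 CPM at 6 months and 21.6, 20.9 and 24.4 CPM at 18 months. An annotated gene model of 17657 bases on chromosome 14 (29149205 to 29687492) read 167.3, 170.3 and 121.5 CPM at 6 months and 37.2, 26.6 and 54 CPM at 18 months. It was 3.9-fold lower, with one of the smaller standard errors among these gene models (edgeR log2 fold change -1.96, SE 0.36, adjusted p = 0.558). Reads at its coding sites were 15, 11.5 and 15.7 RPM against 5.08, 3.58 and 8.86. At 30 months its counts were 130.9, 105.2 and 58.9 CPM.

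A gene model of 16796 bases on chromosome 3 (112237229 to 112902825) read 66.2, 48.1 and 55.2 CPM at 6 months and 16.5, 16.8 and 21.9 CPM at 18 months. Its 29 coding sites gave 61.5, 38 and 48.9 RPM against 12.3, 9.75 and 19.2, close to the ratio of the counts. A gene model of 12152 bases elsewhere on chromosome 3 (86527184 to 86594286) read 164.6, 137.1 and 85.6 CPM against 40.3, 22.1 and 34 CPM, with site reads of 2940, 1490 and 1410 RPM against 590, 718 and 564. For both of these the 2 readings of the libraries separated the ages in the same direction. At 30 months the gene model of 16796 bases read 30.9, 58.95 and 22.4 CPM. That of 12152 bases read 50.6, 86.6 and 36.8 CPM. On the X chromosome, a gene model of 15241 bases (83656202 to 83950283) read 55.1, 67.0 and 93.2 CPM against 25.3, 5.84 and 24.3 CPM. It had no coding site, and its site reads were 20.7, 20.3 and 31 against 17.1, 15.1 and 21.3 RPM and overlapped. At 30 months it read 78.4, 25.5 and 73.3 CPM.

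**Figure D2:**
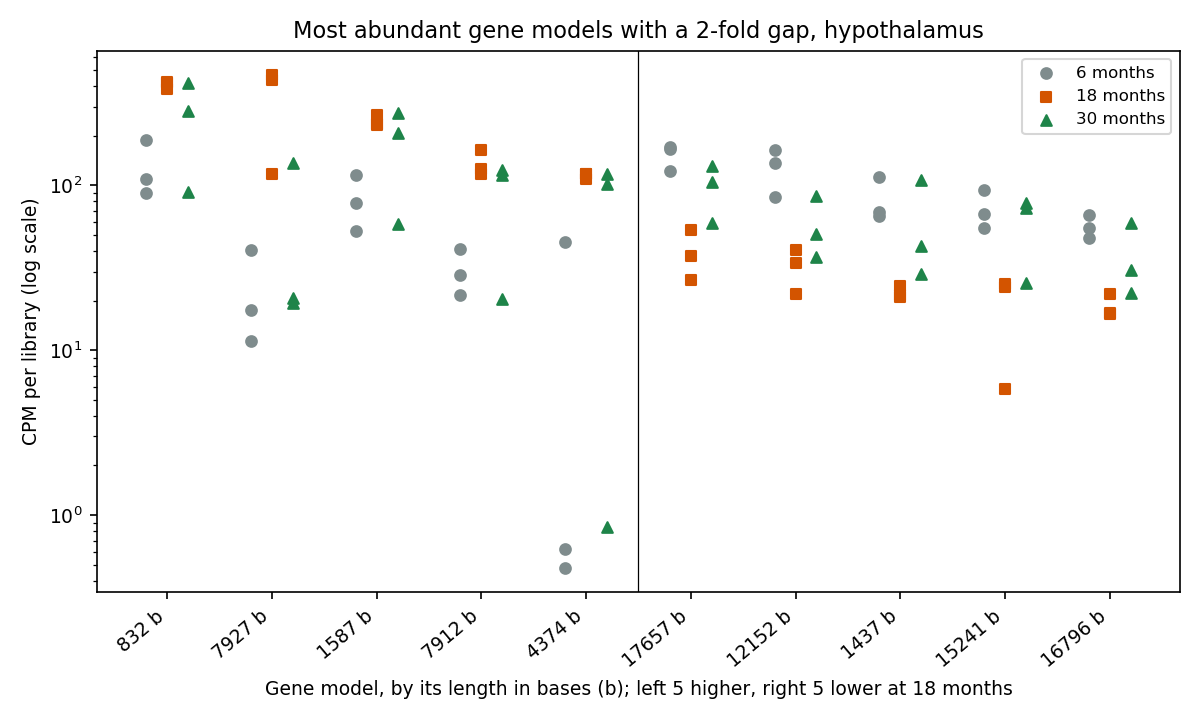
CPM (log axis) of 10 gene models with a 2-fold gap between 6 and 18 months, the 5 of highest mean CPM in either direction, 1 point per hypothalamus library. For every gene model the 3 points of 6 months and the 3 of 18 months do not overlap, as the choice of these gene models requires.

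Gene model length differed between the groups with all 6 libraries. The difference reversed without 18-month replicate 2 and shrank without 6-month replicate 2. Without any other single library it kept its direction and was no smaller. With all 6 libraries the median length was 4167 bases in the higher group and 6090.5 bases in the lower group, against 4720 bases over all tested, a difference of -1923.5 bases (higher minus lower). Without 18-month replicate 2 the medians were 6045 and 4343 bases, a difference of 1702 in the opposite direction. Without 6-month replicate 1 they were 4065 and 5997 bases (a difference of -1932), and without both they were 5785 and 4369 bases (1416). Without 6-month replicate 2 they were 4998.5 and 5413 bases, and the difference was -414.5. It was -1974.5 without 18-month replicate 1, -2474 without 18-month replicate 3 and -2203 without 6-month replicate 3. The raised 3′ share of 18-month replicate 2 moved with this reversal, and its part in it was not tested.

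The same turn appeared between the shortest and the longest gene models, though not steadily in between. With all 6 libraries, the share higher at 18 months went from 10.4% in the shortest of 5 equal classes of gene models (190 to 2111 bases) to 5.97% in the longest class (10189 to 826903 bases). The share lower went from 5.41% to 10.4%. Without 18-month replicate 2, the shares higher were 14.7% in the shortest and 25.5% in the longest class, and the shares lower were 18.7% and 15%. The share lower was then largest, at 21.6%, in the class of 2112 to 3717 bases. Without 6-month replicate 2, the shares higher were 16.7% and 17.6%, and the shares lower 12.3% and 16.6%. Both were then largest in the class of 6051 to 10184 bases, at 19.4% and 18.3%. Among annotated gene models alone, the medians with all libraries were 4178 and 6547 bases (4915.5 over all annotated ones tested). Among new gene models they were 4004.5 and 3252 bases (3506 over all new ones tested), the opposite order. For the gene models with a 2-fold gap, the medians were 2434.5 and 2874.5 bases, both below the median of all tested.

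**Figure D3:**
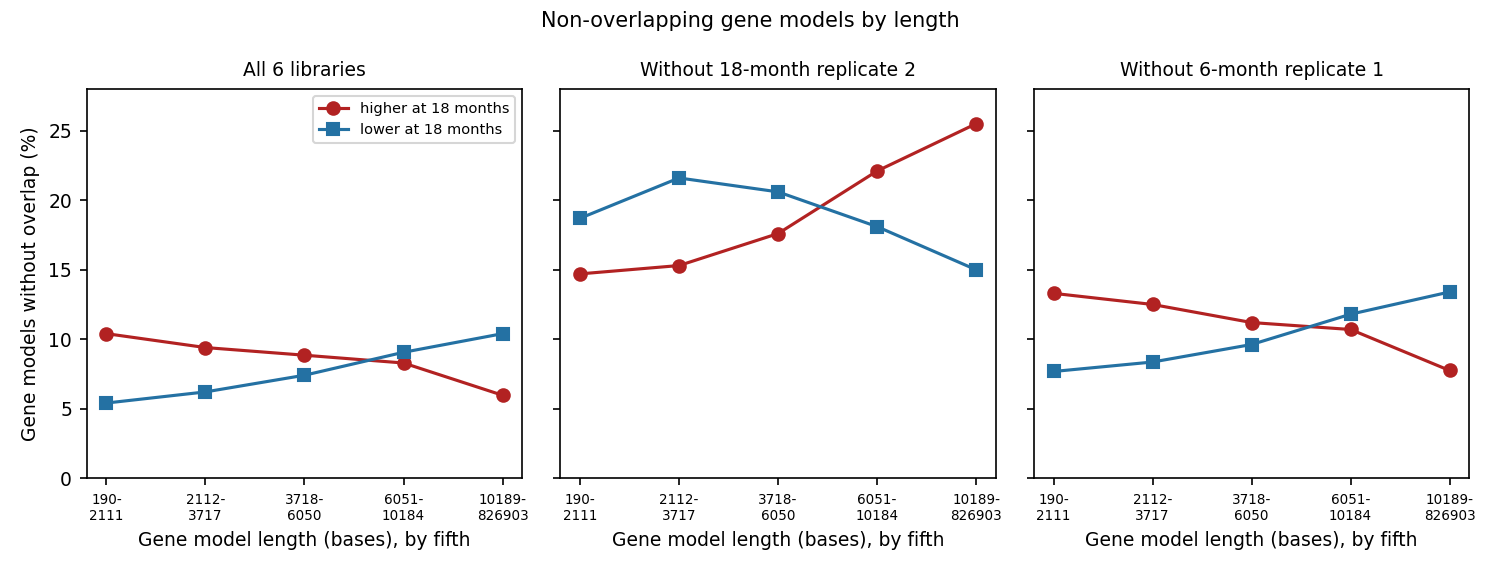
Share of gene models (percent, y axis) with non-overlapping CPM, higher and lower at 18 months, in 5 equal classes of gene model length (bases, x axis), with all 6 libraries and without 18-month replicate 2 or 6-month replicate 1. With all 6 libraries the share higher is 10.4% in the shortest and 5.97% in the longest class, and without 18-month replicate 2 it is 14.7% and 25.5%.

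Of the gene models tested, 14459 could be placed on a chromosome by the SNP sites assigned to them, those before and after the gene included, 18 lay on other sequences and 4286 had no site. Among those placed, 1298 were higher (8.98%) and 1098 lower (7.59%) at 18 months. Members lay on all 29 autosomes and the X chromosome, in unequal shares. The share higher was largest on chromosomes 27 (13.8%), 25 (13.2%), 29 (12.7%) and 18 (12%), and smallest on chromosomes 9 (5.5%), 12 (5.93%) and 20 (6.33%). The share lower was largest on chromosomes 28 (15.1%), 24 (12.4%) and 6 (10.8%), and smallest on chromosomes 23 (3.54%), 25 (3.99%) and 29 (5.03%). The X chromosome held 7.59% higher and 9.44% lower.

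These shares were set beside how densely the placed gene models lie. Density here is the number of tested gene models placed by SNP sites, per megabase between the first and last SNP site. Tested gene models without a site are not counted, so SNP coverage enters the measure. Chromosomes 25, 19 and 18 held 12.9, 12.7 and 12.6 placed gene models per megabase, and chromosome 9 held 2.93. Chromosome 27, with the largest share higher, held 3.36 per megabase and stood apart from this order. Across the 30 chromosomes, density and the share higher correlated at Pearson's r = 0.564 (Spearman's rho = 0.617), and density and the share lower at r = -0.61 (rho = -0.699). The points share the same 6 libraries and differ in base composition and gene length, so the correlations describe these libraries only. Unlike length, this pattern kept its sign without 18-month replicate 2, at r = 0.442 for the share higher and -0.519 for the share lower. Without 6-month replicate 1 the values were 0.575 and -0.645, and without both they were 0.587 and -0.555.

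Length and density were also set side by side. On the 15 denser chromosomes, 10.9% of the shorter gene models were higher and 4.76% lower, and 8.22% of the longer ones were higher and 8.56% lower. On the 15 sparser chromosomes, the shorter gene models gave 9.11% and 7.31%, and the longer ones 6.82% and 11%. Within either length class the denser chromosomes thus held the larger share higher and the smaller share lower. Without 18-month replicate 2, the shares higher on the denser chromosomes were 16% for shorter and 24.2% for longer gene models, and on the sparser ones 13.7% and 22.5%. The order between denser and sparser chromosomes was the same for the share higher, while that between shorter and longer gene models had turned.

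**Figure D4:**
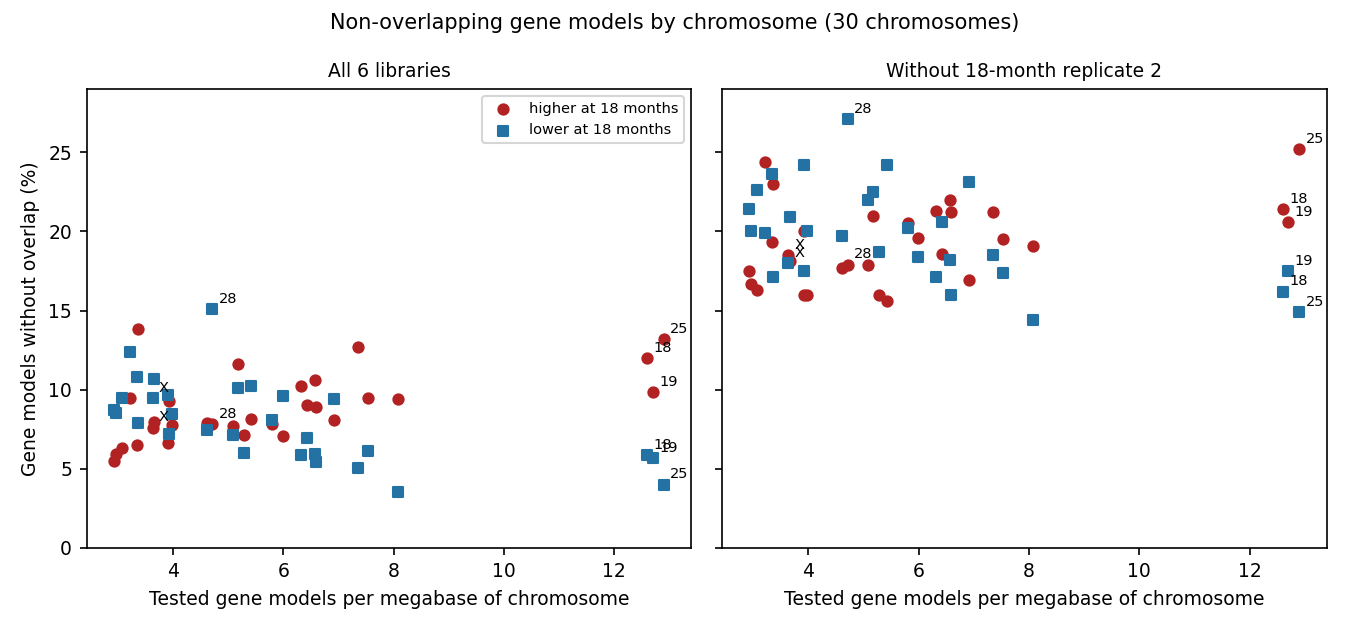
Share of placed gene models (percent, y axis) with non-overlapping CPM, higher and lower at 18 months, 1 point per chromosome (30 chromosomes). The x axis is the number of tested gene models placed by SNP sites per megabase between the first and last SNP site. Chromosome 25, at 12.9 gene models per megabase, has 13.2% higher and 3.99% lower; chromosome 9, at 2.93, has 5.5% and 8.74%.

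Some members were neighbours. In the higher direction, 16 runs held 3 gene models with sites inside them in a row and 5 runs held 4. In the lower direction, 11 runs held 3 and 3 runs held 4. Of the placed gene models, 8.98% were higher and 7.59% lower. How many runs a random order gives was not tested, so no grouping is read from these counts. The higher runs of 4 lay on chromosomes 13 (52886613 to 53143129), 14 (1911362 to 1969788), 23 (27423665 to 27459002), 25 (26175012 to 26229475) and 26 (42324346 to 42716411). The lower runs of 4 lay on chromosomes 2 (86504437 to 88839987), 20 (25984831 to 28746604) and 26 (33240190 to 34465531). Each of the 3 lower runs spanned more of the chromosome than any of the 5 higher ones. Overlapping gene models can share reads, and no strand setting of the counting is given in the sources used here, so neighbours in such runs may not be separate measurements.

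Reads at SNP sites gave a second reading of the same libraries, taken from the variant table and not from the gene counts. Site reads were scaled to the site reads of each library, which ran from 4965446 to 7093522, and were called following where they separated the ages in the direction of the counts. At least 20 site reads on average were held by 1094 of the higher members, and 421 (38.5%) followed, while 11 went the opposite way. Of 866 lower members, 368 (42.5%) followed and 6 went the opposite way. Over all 11382 gene models with as many site reads, 10.3% were higher and 7.08% lower in site reads. The 2 readings come from the same reads in part, so this share says how far they coincide and is no replication.

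The share that followed differed between classes of site, and the order of the classes depended on 18-month replicate 2. Of the lower members, 335 of 634 (52.8%) followed at coding sites, 92 of 535 (17.2%) at 3′ UTR sites and 146 of 512 (28.5%) at intron sites, against background shares of 10.1%, 3.29% and 6.56%. Of the higher members, 242 of 765 (31.6%) followed at coding sites, 193 of 532 (36.3%) at 3′ UTR sites and 125 of 697 (17.9%) at intron sites, against background shares of 7.14%, 14.4% and 7.16%. The 3′ UTR share of site reads was high in 18-month replicate 2, and its part in these values was not tested. Without that library, the lower members followed in 64.5% at coding, 42.6% at 3′ UTR and 34.5% at intron sites (backgrounds 22%, 14.9% and 9.25%), so that 3′ UTR sites were no longer the lowest. The higher members then followed in 41.1% at coding, 44.2% at 3′ UTR and 47.9% at intron sites (backgrounds 13.9%, 18.9% and 26.4%), and intron sites went from the lowest to the highest. When each class was scaled to its own site reads in all 6 libraries, the 3′ UTR shares were 32.9% for higher and 26.4% for lower members, with backgrounds of 11.6% and 5.92%. The coding shares were then 38.7% and 46.2% (backgrounds 9.83% and 7.74%), and the intron shares 31.4% and 32.8% (11.6% and 9.05%).

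**Figure D5:**
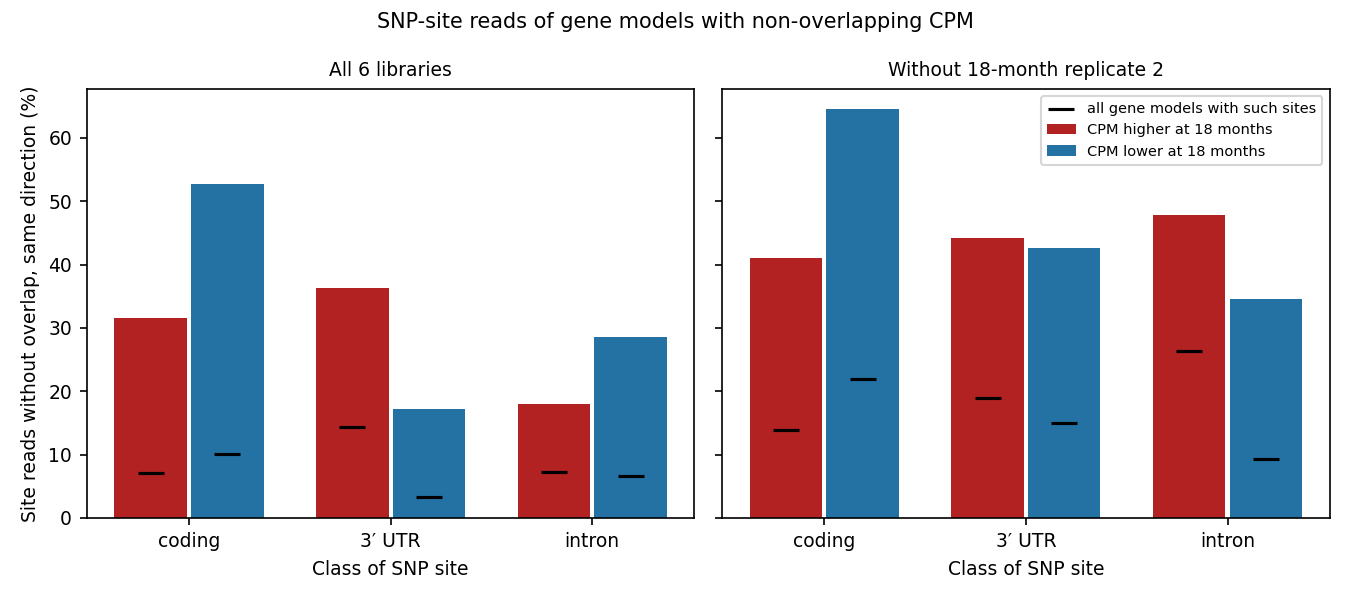
Share of members (percent, y axis) whose SNP-site reads separated the ages in the direction of the counts, by class of site (x axis), beside the same share over all gene models with site reads. At coding sites 31.6% of higher and 52.8% of lower members followed, against 7.14% and 10.1% over all gene models.

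In size as well as direction, coding sites resembled the counts when scaled to the coding-site reads of each library. The mean of coding site reads lay on the same side as the mean CPM in 687 of 765 higher members (89.8%) and 592 of 634 lower members (93.4%). The median log2 ratio of higher members was 0.46 in CPM and 0.47 in coding site reads. For lower members the median size was 0.69 in CPM, and the median log2 ratio of coding site reads was -0.63. Of members with a 2-fold ratio of CPM means, 61 of 91 higher and 103 of 151 lower ones also had a 2-fold ratio at coding sites. No share over all gene models stands beside these values. The members were chosen by the CPM of these same libraries, so the values say how far the 2 readings coincide and are no replication. Depth at single sites reached 790 to 869 reads at most in each library, and 27 of the 2374 members with a site inside the gene model held one read at least 500 times, as did 125 of all gene models tested.

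In 17 members the site reads separated the ages against the counts. The one with most site reads was an annotated gene model of 7450 bases on chromosome 24 (46300865 to 46309588), with 593.9, 611.2 and 670.7 CPM at 6 months and 706.7, 898.5 and 772.8 CPM at 18 months. Its site reads, 37 of its 45 sites being in introns, were 178, 237 and 220 RPM at 6 months and 114, 97.3 and 151 at 18 months. The next was a gene model of 12684 bases on the X chromosome (107779991 to 107896454), with 404.9, 360.2 and 440.3 CPM against 315.2, 260.0 and 334.2 CPM. Its site reads were 73.3, 65.7 and 60.2 RPM at 6 months and 73.4, 79.8 and 74.6 at 18 months, and 35 of its 40 sites were in introns. Intron sites formed the majority of sites in both.

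The 30-month libraries were not part of the rule, and their levels at the members did not form one group. In 30-month replicate 3, 64.4% of the higher and 64.8% of the lower members lay on the 18-month side, that is, at or beyond the 18-month library nearest to the 6-month ones. In 30-month replicate 1 the shares were 56.6% and 55.4%. In 30-month replicate 2 they were 15.2% and 17.5%, and 72.3% of the higher and 67.7% of the lower members lay on the 6-month side. For most members, the library of 1 of the 3 oldest cows thus lay on the 6-month side. Over all gene models, 30-month replicate 2 correlated at 0.941 and 0.937 with 6-month replicates 1 and 3, and at 0.924 with 18-month replicate 2. With 6-month replicate 2 it correlated at 0.918, and with 18-month replicates 1 and 3 at 0.897 and 0.886. Its intron share of site reads was 16.2%, against 21.6% and 21.4% in 30-month replicates 1 and 3. The part of this split across the ages in these positions was not tested.

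The pituitary of the same 6 cows was set beside these members. Of the 1609 higher members, 127 (7.89%) were also higher without overlap there, where 10.9% of gene models were, and 113 (7.02%) were lower without overlap. The 127 are 6.23% of the 2040 gene models of the pituitary list. Of the 1444 lower members, 132 (9.14%) were also lower in the pituitary, where 13% were, and 76 (5.26%) were higher. The 132 are 5.42% of the 2437 gene models of that list. The shares in the same direction were thus no larger than the pituitary background.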

How the data were processed

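Poly(A) RNA of the hypothalamus was sequenced from 3 Angus cows at each of 6, 18 and 30 months. Raw read counts per gene model were deposited, with gene model lengths, per the file headers. A second table deposited by the authors holds FPKM for the same gene models. A deposited table lists SNP sites with, per the file headers, the count of reads at each site in each library. Tools named in the submitters' processing notes are DESeq, GATK, HISAT2 and StringTie, without roles or versions; the genome build, annotation and strand setting are not given in the sources used here.

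Counts of the 9 hypothalamus libraries were fitted together in R 4.3.3 by the quasi-likelihood test of edgeR 4.0.16 (with limma 3.58.1), after filtering by expression within ages and TMM scaling. The contrast was 18 minus 6 months, under Benjamini-Hochberg adjustment at 0.05. The standard error of a log2 fold change was derived from its F statistic. CPM were taken over TMM-scaled library sizes. A ratio against a group with no counts uses a floor of 3 counts over that group and is a lower bound that covers counting error only; ratios of age means used for counts of 2-fold differences had 0.1 CPM added to both means. Site reads were summed over the sites inside a gene model, and gene models with a mean of at least 20 over the 6 libraries were compared. Libraries of the same cow were found from genotypes. Scripts were tested on simulated data. Python 3.11.15 was used for the site tables.

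Gene models named are the first 2 of each direction by the gap between the nearest libraries on the log2 CPM scale (prior count 2), among those with at least 1 CPM in each library of the higher age; the other gene models of the first 10 are given by length and position or in ranges, together with the 2 of most site reads whose site reads went against the counts. The members, lists and alternatives were chosen with earlier results of these data known. Since no identifier matched a gene symbol, the lists of marker and pathway genes were not run. The alternatives were other scaling factors and filters, DESeq2 1.42.0, limma-voom, limma-trend on log2 FPKM, fewer libraries, and a minimum of 100 site reads. Leaving out 18-month replicate 2 with 6-month replicate 3, and scaling site reads by class, were added after seeing the data.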

Additional observations from a re-analysis of the deposited data

Results flagged for a closer look

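Of the 20 gene models of largest gap, 1 went opposite ways in the tissues of the same cows. Of all members, 7.02% of the higher and 5.26% of the lower ones were opposite without overlap in the pituitary. Over all gene models tested, 13% were lower and 10.9% higher there, so nothing is read from the count of 1. The new gene model that did so, of 7759 bases and with no SNP site, had 0 counts in the 3 hypothalamus libraries at 6 months. It read 2.24, 1.50 and 1.30 CPM at 18 months, a difference of means of 1.68 CPM. In the pituitary it read 1.17, 0.227 and 0.469 CPM at 6 months and 0 CPM in the 3 libraries at 18 months. Every hypothalamus library was thus higher and every pituitary library lower at 18 months; the difference between the tissues was not tested.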

How the results depend on the processing

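No paired analysis was possible because each age had different cows and replicate numbers do not link them. The edgeR count of 0 calls held under every alternative except DESeq2, which called 96 and took 3 of the 4 gene models named by identifier past the threshold (log2 fold changes 12.17, 9.69 and -8.55; the fourth, at -5.86, had no adjusted p). At an unadjusted p under 0.05, limma-voom with quality weights gave 1902 higher and 2396 lower; leaving out 18-month replicate 2 with 6-month replicate 1 gave 347 and 573; leaving out single libraries gave 355 to 1285 higher and 503 to 1205 lower. Non-overlapping gene models numbered 2048 to 3573 higher and 1907 to 3530 lower without single libraries, 4205 and 4147 without 18-month replicate 2 and 6-month replicate 1, 4893 and 4942 without 18-month replicate 2 and 6-month replicate 3, and 60 and 84 with a 2-fold gap; other scalings, the FPKM and other filters gave 1514 to 1770 higher and 1298 to 1554 lower.

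Median length without single libraries was 3768 to 6045 bases for higher and 4343 to 6242 for lower gene models, and the difference was -2474 to 1702. It reversed without 18-month replicate 2 (1702), with 6-month replicate 1 also out (5785 against 4369, 1416) and with 6-month replicate 3 also out (5394 against 4485, 909); with a 2-fold gap the medians were 2434.5 and 2874.5. The cause was not tested. Members whose site reads followed the counts made up 40.6% to 56.5% of the higher and 39.2% to 57.6% of the lower without single libraries. Without 18-month replicate 2 and 6-month replicate 1 they made up 54.8% and 55.7%. Without 18-month replicate 2 and 6-month replicate 3 they made up 52.7% and 64.4%. The shares over all gene models with such site reads rose too. With all 6 libraries those shares were 10.3% and 7.08%. They were 13.6% and 8.98% without 6-month replicate 1, and 20.3% and 17.1% without 18-month replicate 2. Without both they were 24.7% and 20%. No closer match of the 2 readings is therefore read from the higher shares that followed. The intron share of site reads differed by -0.01 percentage points, and by 0.49 over sites read in all 6 libraries.

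Each age had 3 cows, with a coefficient of variation of 51.6% between them, and the lack of edgeR calls does not show that the ages did not differ. Leaving out a library leaves 2 against 3, so non-overlap is then easier to meet.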
